A study of Homo sapiens with 12 samples.

Results

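The MITF-TFE factors are 4 related transcription factors, encoded by MITF, TFE3, TFEB and TFEC, and the PGC1 coactivators described with them are encoded by PPARGC1A and PPARGC1B. They were taken by gene symbol from the count tables of 2 human melanoma cell lines, A375 and SKMel28, where all 6 symbols were present among 26499 genes. Vemurafenib-resistant and sensitive cells of each line were sequenced as poly(A)-selected total RNA. The 4 groups held 3 libraries each, 12 in all.

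The resistant groups, A375-R and SKMel28-R, were kept in 1 µmol/L vemurafenib, an inhibitor of the mutant BRAF kinase, and the sensitive groups were the lines they are set against. All cells were grown in DMEM with 10% FBS. The labels do not state whether sensitive cells received drug or vehicle, how resistance was selected, or whether a resistant line is 1 clone, so resistance and the presence of drug cannot be told apart. Nor do they name separate cultures behind the libraries of 1 group. The p-values below therefore measure the spread between these libraries, which may be technical.

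MITF is the master regulator of the melanocyte lineage and drives pigment and survival genes, and it is also known to control the PPARGC1A gene in melanocytic cells. TFEB and TFE3 switch on genes of lysosomes and autophagy when they enter the nucleus, which the mTORC1 kinase complex on the lysosome surface restrains by phosphorylation. TFEC is best known from macrophages. PPARGC1A and PPARGC1B encode PGC1-alpha and PGC1-beta, which bind no DNA themselves but are recruited by nuclear receptors such as ERR-alpha and by NRF1 to genes of mitochondrial respiration.

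Start regions of MITF, PPARGC1A and TFE3 are shown because these genes carry the main differences described below and because MITF is known to act on the PPARGC1A gene. Each is 250 bases before to 50 bases after a RefSeq start on GRCh38.p14, written 5′ to 3′ on the gene's strand, with the motif that a search found in capitals. The first is the start of the melanocyte transcript of MITF (chr3:69936342-69936641, plus strand), which lies 197.1 kb downstream of the first MITF start. The next pair are the PPARGC1A start inside the annotated gene (chr4:23881052-23881351, minus strand) and one 591.8 kb upstream of it (chr4:24472856-24473155, minus strand). The last is TFE3 (chrX:49043308-49043607, minus strand).
MITF, melanocyte start: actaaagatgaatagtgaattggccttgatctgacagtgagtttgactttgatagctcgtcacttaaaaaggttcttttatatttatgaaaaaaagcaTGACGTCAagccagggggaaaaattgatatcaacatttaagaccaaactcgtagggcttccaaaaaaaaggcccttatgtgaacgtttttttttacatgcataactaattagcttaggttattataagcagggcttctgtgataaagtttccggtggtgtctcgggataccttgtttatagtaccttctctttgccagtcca
PPARGC1A, start inside the annotated gene: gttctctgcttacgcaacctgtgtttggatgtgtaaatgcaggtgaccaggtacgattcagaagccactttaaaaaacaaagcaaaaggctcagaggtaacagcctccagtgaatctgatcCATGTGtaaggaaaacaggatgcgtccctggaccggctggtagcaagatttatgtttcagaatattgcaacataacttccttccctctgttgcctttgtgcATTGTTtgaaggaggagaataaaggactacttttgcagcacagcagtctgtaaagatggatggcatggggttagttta
PPARGC1A, distal upstream start: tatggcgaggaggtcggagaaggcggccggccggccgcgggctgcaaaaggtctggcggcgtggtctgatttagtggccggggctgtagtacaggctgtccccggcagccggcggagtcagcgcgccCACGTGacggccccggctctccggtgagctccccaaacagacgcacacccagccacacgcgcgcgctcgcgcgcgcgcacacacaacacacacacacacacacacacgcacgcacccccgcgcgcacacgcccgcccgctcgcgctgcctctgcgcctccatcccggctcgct
TFE3: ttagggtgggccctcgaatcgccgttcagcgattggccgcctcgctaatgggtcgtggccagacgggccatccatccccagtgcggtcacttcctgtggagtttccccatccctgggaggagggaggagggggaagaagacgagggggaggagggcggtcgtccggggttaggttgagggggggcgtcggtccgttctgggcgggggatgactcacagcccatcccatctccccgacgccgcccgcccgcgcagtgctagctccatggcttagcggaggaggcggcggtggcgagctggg

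Both strands were searched for 6 motifs: the E-boxes CACGTG and CATGTG, the core TCACGTGA of the lysosomal CLEAR element (which contains CACGTG), the cAMP response element TGACGTCA, a SOX motif AACAAT and an ERR element TNAAGGTCA. None of the 6 motifs was in the other MITF start windows, which are not printed. The MITF window at the melanocyte start held TGACGTCA with its first base at position -152 from the start. Of 35116 RefSeq start windows of the same length, 1.85% held that motif. The PPARGC1A window inside the gene held CATGTG at -129, a motif of 11.1% of all windows, and AACAAT on the opposite strand at -28, a motif of 10.1%. The distal PPARGC1A window held CACGTG at -123, a motif of 7.26%. The TFE3 window held none of the 6, which says only that these letters are not in it. CLEAR cores and ERR elements were in 0.98% and 0.951% of all windows and in none of the 4 printed here. These matches are descriptions of sequence, and no measurement here bears on whether they were bound.

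Library depth was similar, with 28496518 to 37721363 reads assigned to genes per library. Levels are counts-per-million values (CPM) of the TMM-adjusted library size, and 1 CPM stood for 29.76 to 39.69 reads. Of 9 melanoma markers, 6 were under 1 CPM in resistant A375, 3 in sensitive A375 and none in either SKMel28 group. TYR, the enzyme that starts melanin synthesis, had no read in any A375 library. The summed level of 16 markers of other cell types was 6.99 to 7.69 CPM in resistant A375 and 32 to 35.2 CPM in sensitive A375, where KRT14 alone averaged 25.5 CPM. It was 15.8 to 18.6 CPM in resistant SKMel28 and 25.4 to 25.6 CPM in sensitive SKMel28, mostly LUM. Of the 16, 4 had no read in resistant A375, 5 in sensitive A375, 6 in resistant SKMel28 and 8 in sensitive SKMel28. Their part in the results was not tested. In bulk RNA, fewer cells of a type and less RNA per cell cannot be told apart.

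The tested members moved differently in the 2 lines. In resistant A375, MITF was lower and TFE3 and PPARGC1B were higher than in sensitive A375. In resistant SKMel28 the signs of MITF, TFE3 and PPARGC1B were opposite, with MITF, TFEB and PPARGC1A higher and TFE3 and PPARGC1B lower than in sensitive SKMel28. Calls are edgeR tests with a Benjamini-Hochberg adjusted p under 0.05 over all 15506 genes tested. In A375, 3 of the 5 members tested were called, 2 of them higher and 1 lower. Of all genes tested in that comparison, 51.3% were called, 25.0% higher and 26.3% lower. In SKMel28 all 5 tested members were called, 3 higher and 2 lower, where 70.0% of all genes were called, 34.2% higher and 35.8% lower. With so many genes called in both lines, a call alone sets no member apart, and size and direction carry the description. TFEC had too few reads to enter the test.

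**Figure D1:**
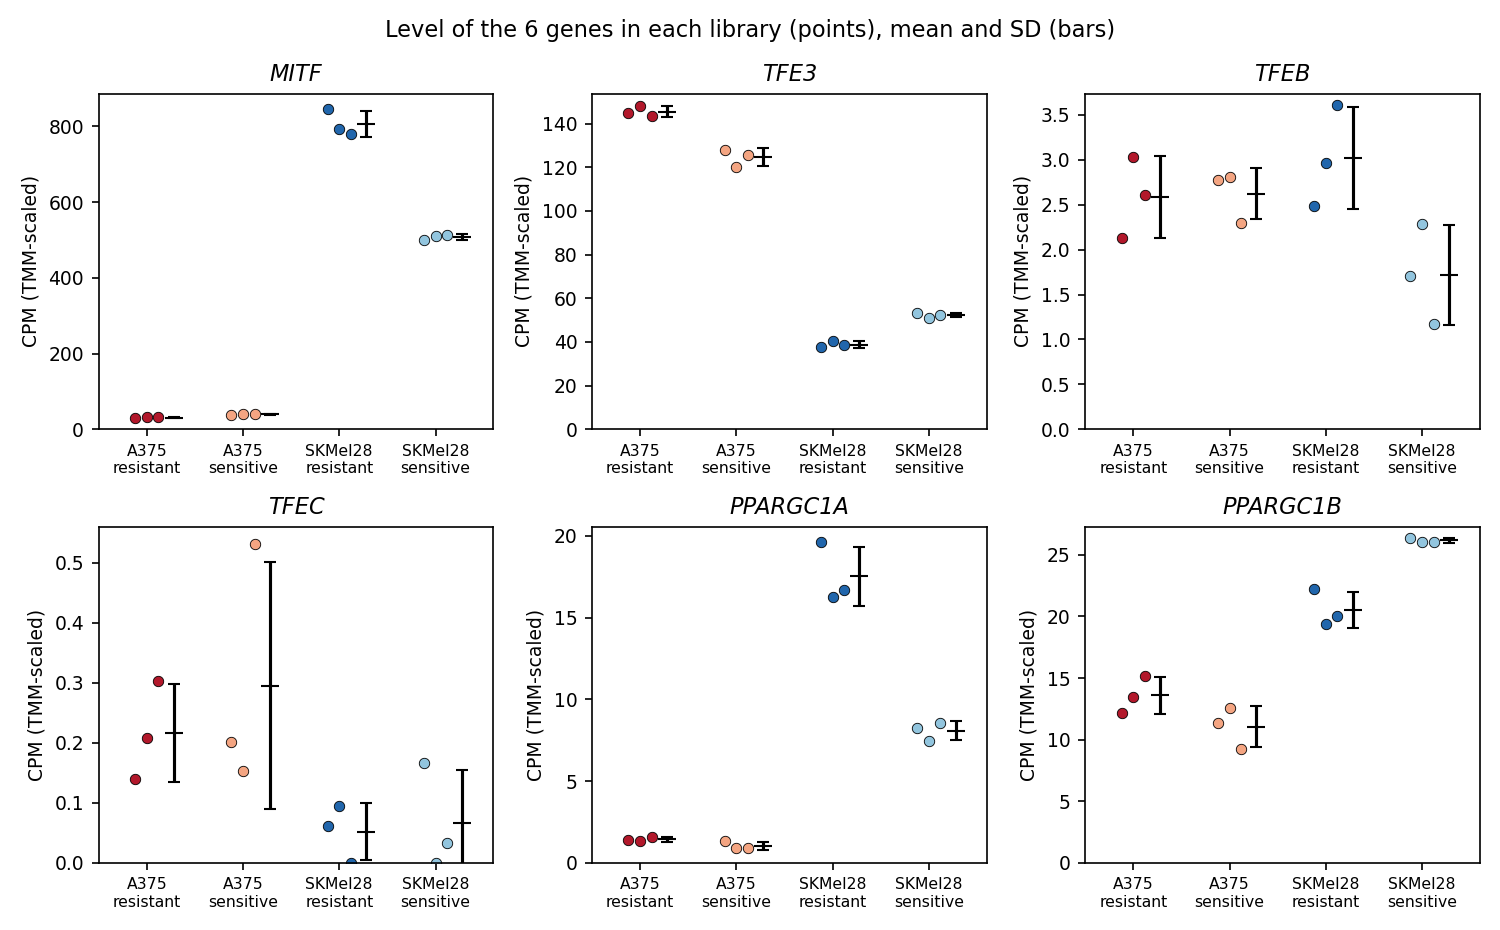
Level of each of the 6 genes in CPM (TMM-scaled, linear axis starting at 0), with 1 point for each library and a bar at the mean with its SD (n = 3). MITF lay between 780.5 and 846.3 CPM in the 3 resistant SKMel28 libraries and between 29.44 and 40.8 CPM in the 6 A375 libraries, while TFE3 ran the other way, with its highest levels in A375.

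MITF lies on chromosome 3 (GRCh38 chr3:69739435-69968337, plus strand). It had 29.44, 31.16 and 32.27 CPM in the 3 resistant A375 libraries and 38.48, 40.8 and 39.54 CPM in the sensitive ones. Every resistant library was below every sensitive one. The log2 fold change was -0.36 ± 0.045 (SE, n = 3 against 3, edgeR adjusted p = 6.89e-09). In resistant SKMel28 it had 846.3, 794 and 780.5 CPM, against 499.4, 510.2 and 513.7 CPM in sensitive SKMel28. Here every resistant library was above every sensitive one, by 0.67 ± 0.035 on the log2 scale (edgeR adjusted p = 3.34e-21), or 1.59-fold. The A375 change minus the SKMel28 change was -1.02 ± 0.057 (edgeR adjusted p = 6.54e-20).

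MITF also separated the lines. Resistant A375 averaged 30.95 ± 1.43 CPM and resistant SKMel28 806.9 ± 34.8 CPM (SD, n = 3 each), a log2 difference of -4.71 ± 0.043 (edgeR adjusted p = 1.72e-50). Sensitive A375 averaged 39.61 ± 1.16 CPM and sensitive SKMel28 507.8 ± 7.44 CPM, a log2 difference of -3.68 ± 0.041 (edgeR adjusted p = 5.51e-47). The order of the groups, resistant SKMel28 above sensitive SKMel28, then sensitive A375 above resistant A375, held at each step beyond the spread between libraries. These counts pool 18 annotated transcripts from 15 starts spread over a gene of 228.9 kb, so the melanocyte transcript was not measured apart from the longer ones.

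TFE3, a broadly expressed member of the family, lies on the X chromosome (GRCh38 chrX:49028726-49043486, minus strand). It had 144.8, 148.2 and 143.4 CPM in resistant A375 and 128, 119.9 and 125.8 CPM in sensitive A375. All 3 resistant libraries were above the sensitive ones, with a log2 fold change of 0.22 ± 0.041 (edgeR adjusted p = 8.81e-06). In resistant SKMel28 it had 37.56, 40.32 and 38.48 CPM, against 53.29, 51.11 and 52.51 CPM in sensitive SKMel28. There the 3 resistant libraries were below the sensitive ones, by -0.43 ± 0.047 on the log2 scale (edgeR adjusted p = 5.17e-11). The A375 change minus the SKMel28 change was 0.66 ± 0.062 (edgeR adjusted p = 1.54e-12), the opposite sign to that of MITF.

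Between lines TFE3 was higher in A375 in both states. The log2 difference from SKMel28 was 1.91 ± 0.044 between resistant cells (edgeR adjusted p = 6.05e-35) and 1.25 ± 0.044 between sensitive cells (edgeR adjusted p = 3.76e-28). Resistant A375 was thus highest, followed by sensitive A375, sensitive SKMel28 and resistant SKMel28, and each step of that order passed the test.

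TFEB, the best studied activator of lysosomal genes, lies on chromosome 6 (GRCh38 chr6:41683978-41736259, minus strand) and was read at low depth, with 36 to 124 reads per library. It had 2.125, 3.033 and 2.603 CPM in resistant A375 and 2.772, 2.805 and 2.295 CPM in sensitive A375. The groups overlapped and no change was detectable at this depth. The log2 fold change was -0.03, with a 95% interval of -0.45 to 0.39 (edgeR adjusted p = 0.934). In resistant SKMel28 it had 2.488, 2.963 and 3.615 CPM, against 1.701, 2.285 and 1.173 CPM in sensitive SKMel28. The groups did not overlap, and TFEB was higher in resistant SKMel28 by 0.82 ± 0.227 on the log2 scale (edgeR adjusted p = 0.00148).

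The TFEB change differed between the lines by -0.84 ± 0.312 (A375 minus SKMel28, edgeR adjusted p = 0.0169). That call rests on single libraries: its adjusted p was 0.0565 without resistant A375 replicate 1, 0.0683 without resistant SKMel28 replicate 3 and 0.0658 without sensitive SKMel28 replicate 3. Between sensitive cells TFEB was higher in A375 than in SKMel28 by 0.62 ± 0.229 (edgeR adjusted p = 0.0131), which fell to 0.40 without sensitive SKMel28 replicate 3 (edgeR adjusted p = 0.114). Between resistant cells the difference was -0.23, with a 95% interval of -0.64 to 0.19 (edgeR adjusted p = 0.311). Resistant SKMel28 had the highest mean, 3.022 CPM, and sensitive SKMel28 the lowest, 1.72 CPM. Neighbours in the order of TFEB levels overlapped at every step.

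TFEC lies on chromosome 7 (GRCh38 chr7:115935148-116159896, minus strand) and was at the edge of detection. It had 5, 7 and 10 reads in resistant A375 and 8, 5 and 16 reads in sensitive A375. It had 2, 3 and 0 reads in resistant SKMel28, against 5, 0 and 1 reads in sensitive SKMel28. The resistant and sensitive libraries overlapped in both lines. Summed over a group, the level was 0.215 CPM in resistant A375 (exact Poisson 95% interval 0.135 to 0.325) and 0.283 CPM in sensitive A375 (0.189 to 0.406). It was 0.0507 CPM in resistant SKMel28 (0.0165 to 0.118) and 0.0663 CPM in sensitive SKMel28 (0.0243 to 0.144). The intervals cover counting error only.

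PPARGC1A, on chromosome 4 (GRCh38 chr4:23755041-23904089, minus strand), had the largest resistance change of the tested members. In resistant SKMel28 it had 19.6, 16.27 and 16.7 CPM, against 8.271, 7.426 and 8.568 CPM in sensitive SKMel28. The lowest resistant library stood well above the highest sensitive one. The log2 fold change was 1.11 ± 0.116 (edgeR adjusted p = 1.52e-11). In resistant A375 it had 1.37, 1.308 and 1.604 CPM, against 1.31, 0.9147 and 0.8979 CPM in sensitive A375, where 1 sensitive library reached the resistant ones. That difference, 0.43 ± 0.214 on the log2 scale with a 95% interval of 0.01 to 0.85, did not pass the test over all genes (edgeR adjusted p = 0.0924). Without sensitive A375 replicate 1 it was 0.65 and passed (edgeR adjusted p = 0.0303).

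The PPARGC1A change was smaller in A375 than in SKMel28 by -0.69 ± 0.246 (edgeR adjusted p = 0.0138), a call that also rests on sensitive A375 replicate 1, since without it the difference was -0.47 (edgeR adjusted p = 0.147). Between lines the gene was far lower in A375. The log2 difference was -3.62 ± 0.146 between resistant A375 and resistant SKMel28 (edgeR adjusted p = 7.32e-26) and -2.93 ± 0.165 between sensitive A375 and sensitive SKMel28 (edgeR adjusted p = 1.98e-20). The order of the means ran from resistant SKMel28 through sensitive SKMel28 and resistant A375 to sensitive A375, and only the last pair did not differ beyond the spread of its libraries.

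PPARGC1B, on chromosome 5 (GRCh38 chr5:149730298-149855022, plus strand), did not move with PPARGC1A in SKMel28. It had 22.21, 19.39 and 20 CPM in resistant SKMel28, against 26.41, 26.08 and 26.03 CPM in sensitive SKMel28. All resistant libraries were lower than the sensitive ones, by -0.35 ± 0.085 on the log2 scale (edgeR adjusted p = 0.000365). In resistant A375 it had 12.19, 13.44 and 15.13 CPM, against 11.31, 12.59 and 9.278 CPM in sensitive A375. The groups overlapped, and the log2 fold change of 0.29 ± 0.095 was called (edgeR adjusted p = 0.0094) but not without sensitive A375 replicate 3, where it was 0.19 (edgeR adjusted p = 0.125). The A375 change minus the SKMel28 change was 0.64 ± 0.128 (edgeR adjusted p = 2.75e-05).

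PPARGC1B was lower in A375 than in SKMel28, by -0.60 ± 0.090 on the log2 scale between resistant cells (edgeR adjusted p = 8.06e-08) and by -1.24 ± 0.091 between sensitive cells (edgeR adjusted p = 2e-16). Its order from sensitive SKMel28 through resistant SKMel28 and resistant A375 to sensitive A375 passed the test at each step. PPRC1, the remaining coactivator of the family and not one of the 6, averaged 114.2 ± 0.552 CPM in resistant A375 and 114.1 ± 2.12 CPM in sensitive A375. It averaged 78.57 ± 0.616 CPM in resistant SKMel28 and 57.88 ± 1.76 CPM in sensitive SKMel28 (SD, n = 3 each), a log2 fold change of 0.44 ± 0.043 (edgeR adjusted p = 1.98e-12).

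**Figure D2:**
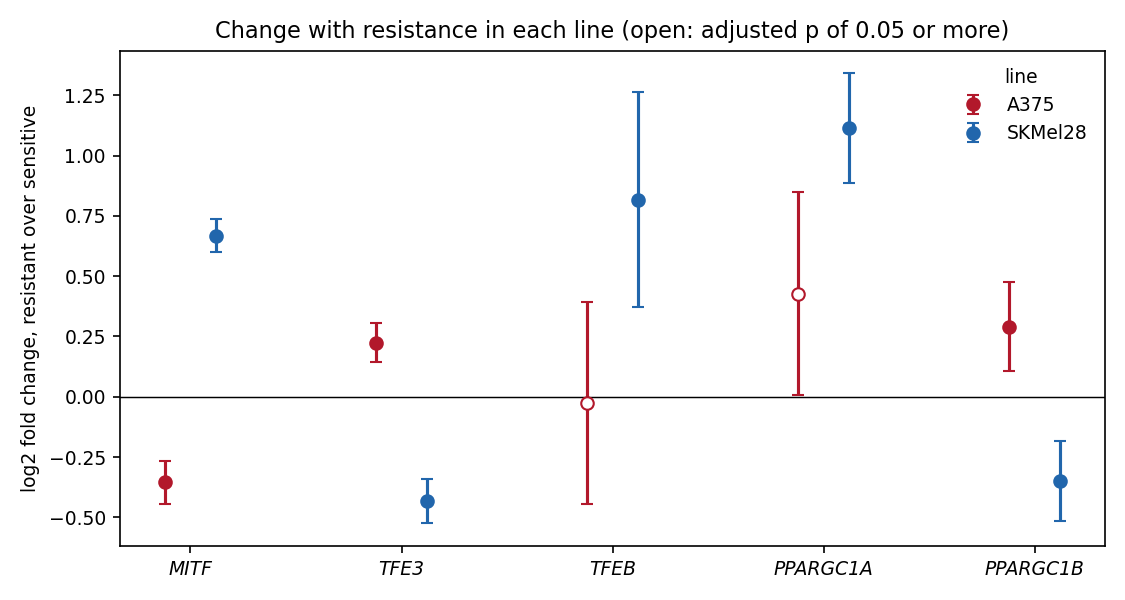
Log2 fold change, resistant over sensitive, for the 5 tested members in A375 and SKMel28, with bars for the 95% interval and open circles where the adjusted p was 0.05 or more. MITF, TFE3 and PPARGC1B lay on opposite sides of 0 in the 2 lines, and PPARGC1A was at 0.43 in A375 and 1.11 in SKMel28.

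The change with resistance differed between the lines for all 5 tested members, in a comparison that called 63.8% of all genes. For TFEB and PPARGC1A that call rests on single libraries, as given above. MITF, TFE3 and PPARGC1B were called in both lines with opposite signs. Between sensitive A375 and sensitive SKMel28 all 5 were called, against 82.9% of all genes, and between resistant A375 and resistant SKMel28 4 of 5 were, against 85.3%. Those between-line comparisons use the same libraries as the resistance comparisons.

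Levels of different genes can be set side by side only per length of transcript. CPM values were therefore divided by the merged exon length of each gene in kb (GENCODE 29), which gave the level of each family as a sum and the share of each gene in it. In A375 the MITF-TFE family was mostly TFE3, at 87.6% ± 0.62 in resistant A375 and 82.8% ± 0.88 in sensitive A375 (SD, n = 3 each). MITF made up 11.1% ± 0.50 in resistant A375 and 15.7% ± 0.83 in sensitive A375. In SKMel28 the family was mostly MITF, at 92.1% ± 0.55 in resistant and 85.0% ± 0.40 in sensitive cells, with TFE3 at 7.44% ± 0.47 in resistant and 14.7% ± 0.41 in sensitive cells. TFEB stayed between 0.366% and 1.33% in the 4 groups and TFEC below 0.1%. In each line the leading member of the family held a larger share in resistant than in sensitive cells, by more than the SD of either group.

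The summed level of the MITF-TFE family per kb of exon was 38.8 ± 0.654 CPM in resistant A375 and 35.1 ± 0.814 CPM in sensitive A375. It was 122 ± 4.56 CPM in resistant SKMel28 and 83.2 ± 0.858 CPM in sensitive SKMel28. The PGC1 pair was far lower, at 1.19 ± 0.127 CPM per kb in resistant A375 and 0.954 ± 0.135 in sensitive A375. In SKMel28 it was 3.2 ± 0.281 CPM per kb in resistant and 2.77 ± 0.0593 in sensitive cells.

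PPARGC1A held 11.1% ± 0.71 of the PGC1 pair in resistant A375 and 10.1% ± 2.1 in sensitive A375, so PPARGC1B made up most of it. In resistant SKMel28 it held 50.3% ± 0.76, against 26.8% ± 1.4 in sensitive SKMel28. The near equality in resistant SKMel28 depends on the length used: with the longest annotated transcript in place of merged exons the share of PPARGC1A was 58.8% in resistant and 34.0% in sensitive SKMel28. The leading member of the MITF-TFE family in each group was the same with either length.

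**Figure D3:**
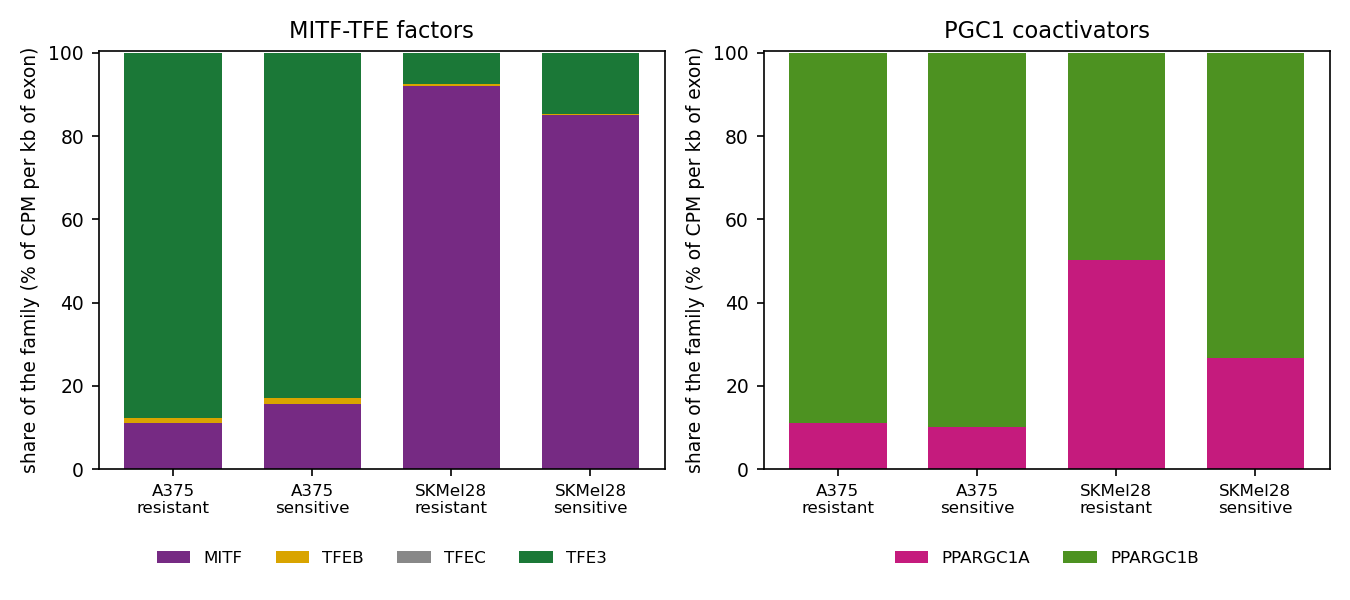
Share of each gene in the summed level of its family in each group, in percent of CPM per kb of merged exon (means of 3 libraries, bars from 0 to 100). TFE3 made up 87.6% of the MITF-TFE family in resistant A375 and MITF 92.1% in resistant SKMel28, and PPARGC1A rose to 50.3% of the PGC1 pair in resistant SKMel28, against 26.8% in sensitive SKMel28.

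A change of a gene can be shared by the stretch of chromosome around it. For each member the tested genes within 5 Mb whose level averaged over the 4 groups reached 2 CPM were described in the same comparison. In SKMel28 the 60 neighbours of TFE3 on the X chromosome had a median log2 fold change of -0.87 and a middle 50% from -1.15 to -0.65. TFE3 itself, at -0.43, was exceeded by 11.7% of them, so the fall of TFE3 was smaller than that of most of its neighbours. In A375 the same neighbours had a median of 0.02 and TFE3 was at 0.22.

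Around the other tested members the medians of both lines lay between -0.12 and 0.34. The 19 neighbours of MITF had a median of -0.03 in A375 and 0.28 in SKMel28, where MITF was at -0.36 and 0.67. The 13 neighbours of PPARGC1A had medians of -0.02 in A375 and -0.12 in SKMel28, where PPARGC1A was at 0.43 and 1.11. The 45 neighbours of PPARGC1B had a median of 0.34 in SKMel28 while the gene was at -0.35, and the 73 neighbours of TFEB had a median of -0.03 there while TFEB was at 0.82. DNA copy number was not measured, and its part in these values was not tested.

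**Figure D4:**
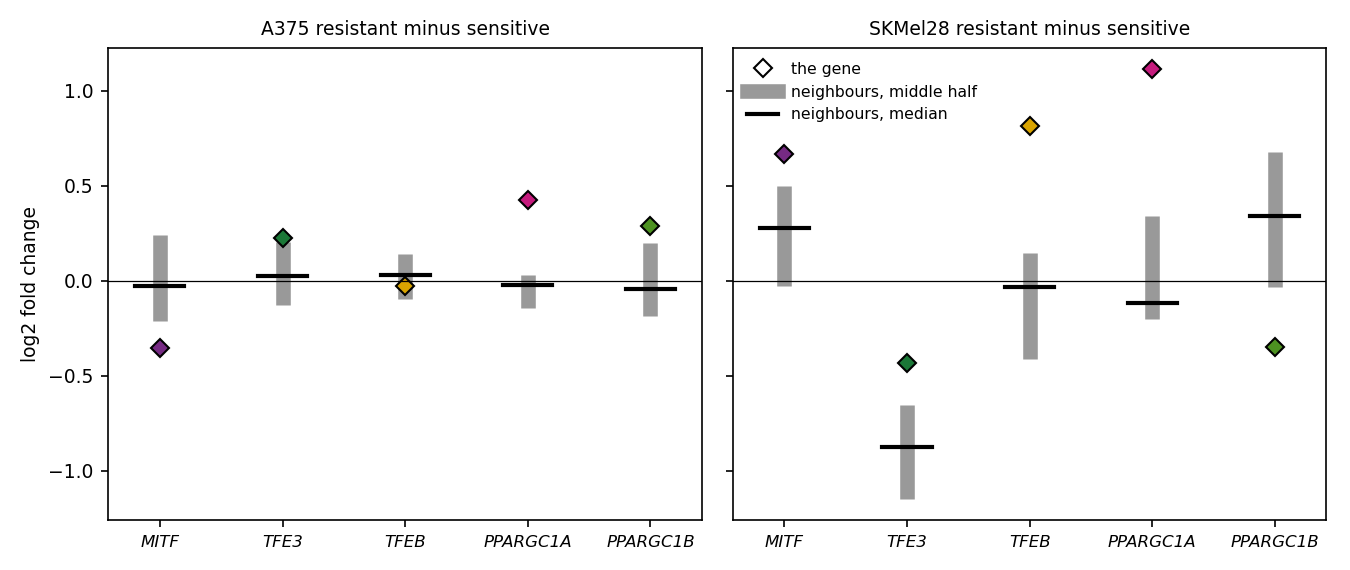
Log2 fold change, resistant over sensitive, of each tested member (diamonds) beside the median (line) and middle 50% (grey bar) of the genes within 5 Mb of it. In SKMel28 the neighbours of TFE3 had a median of -0.87 and TFE3 was at -0.43, while PPARGC1A was at 1.11 and its neighbours had a median of -0.12, with 7.69% of them above PPARGC1A.

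Genes whose pattern was most like that of a member were found by Pearson's r of log2 CPM over the 12 libraries after the mean of each line was removed. For MITF these were ADNP (r = 0.9936), HDAC4 (0.9928) and OXSR1 (0.9919), and for TFE3 DGKZ (0.9894), URGCP (0.9876) and NLRP3 (0.9871). For PPARGC1A they were FCHO2 (0.9804), MFGE8 (0.9797) and AKAP10 (0.9738). The closest to PPARGC1B were PDE3B (0.9458), SHCBP1 (0.916) and FAM21A (0.9028). For TFEB, the tested member of lowest depth over the 12 libraries, they were FEN1 (0.9246), ETAA1 (0.9049) and PPIL3 (0.9048). These are descriptions over 10584 or 10585 candidate genes in libraries that fall into resistant and sensitive groups.

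Genes that act on MITF fell more often than they rose in resistant A375. Of 16 known regulators of the MITF gene, all tested, 2 were higher and 10 lower, with a median log2 fold change of -0.19, beside 3882 higher and 4077 lower of 15506 genes and a median of 0 overall. With DESeq2 size factors 4 were higher and 9 lower, and without resistant A375 replicate 1 the higher count was also 4. The list was not split into genes that raise and genes that lower MITF, so these counts give no direction of input to it. SOX10, the lineage factor that drives MITF in melanocytes, averaged 0.138 ± 0.0487 CPM in resistant A375 and 325.4 ± 6.0 CPM in sensitive A375 (SD, n = 3 each), a log2 fold change of -11.18 ± 0.091. PAX3, which acts with SOX10, fell by 0.26 on the log2 scale, and LEF1, a WNT pathway factor, fell by 0.66. SOX9, a related SOX factor, rose to 200.8 ± 5.64 CPM in resistant A375, against 28.76 ± 1.45 CPM in sensitive A375.

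In SKMel28 the same 16 regulators split into 9 higher and 7 lower, with a median of 0.32, beside 5301 higher and 5553 lower of all genes and a median of -0.01. PAX3 rose to 91.32 ± 0.982 CPM in resistant SKMel28, against 41.25 ± 2.46 CPM in sensitive SKMel28. SOX10 stayed abundant, at 569 ± 24.9 CPM in resistant and 721.5 ± 31.1 CPM in sensitive cells, and fell by 0.34 on the log2 scale. MC1R, the melanocortin receptor that raises MITF through cAMP, fell by 2.35 on the log2 scale, and LEF1 fell by 1.58. MITF was thus higher in resistant SKMel28, as were 9 of the 16 regulators, PAX3 among them. Of the 9, 1 was below 1 CPM in both SKMel28 groups. Among the 15 regulators that reached 1 CPM in either group, 8 were higher and 7 lower, beside 4996 higher and 5000 lower of 12911 genes. SOX10, MC1R and LEF1 were among the 7 that were lower.

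The melanocyte genes that MITF is known to activate could be read mainly in SKMel28. In sensitive cells 27 of 30 were lower in A375 than in SKMel28 and 3 higher, and in resistant cells 28 were lower and 2 higher. Of all 15506 genes, 6281 were lower and 6579 higher in sensitive A375 than in sensitive SKMel28, and 6619 lower and 6604 higher between the resistant cells. In resistant SKMel28, 17 of the 30 rose and 11 fell, with a median log2 fold change of 0.26, beside 34.2% higher and 35.8% lower of all genes. TYRP1, a melanosome enzyme, rose most among the named ones, to 2037 ± 6.23 CPM in resistant SKMel28, against 217.9 ± 1.09 CPM in sensitive SKMel28. The kinase MET rose by 2.18, the melanosome transport gene MLPH by 1.18, the melanosomal antigen MLANA by 0.56, the melanosome matrix gene PMEL by 0.43, the cell cycle kinase CDK2 by 0.30 and TYR by 0.23 on the log2 scale. DCT, another melanin enzyme, fell by 0.29 and the survival gene BCL2A1 by 0.18. MC1R belongs to this list as well as to the regulators.

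In A375, 12 of the 30 melanocyte genes were called higher and 6 lower, beside 25.0% higher and 26.3% lower of all genes. The higher count was 7 without sensitive A375 replicate 1, and the lower count was 3 with the DESeq2 test and 3 without any 1 of the resistant A375 replicates. Of the 30, 15 were below 1 CPM in both groups. Among the other 15, 8 rose and 5 fell in resistant A375, where MITF itself was lower. Of all 13181 tested genes that reached 1 CPM in either A375 group, 3675 were higher and 3734 lower. GPNMB, a lysosomal and melanosomal glycoprotein that TFE3 and TFEB can also activate, rose to 48.65 ± 0.687 CPM in resistant A375, against 24.36 ± 1.59 CPM in sensitive A375. MLPH rose by 0.98 on the log2 scale and MET by 0.32, while CDK2 fell by 0.16. Over all 30 the median was 0.32, and 0.31 when genes without a read in a group were set at the level that 3 reads would give.

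Lysosome and autophagy genes known as targets of TFEB and TFE3 mostly rose in resistant A375. Of 38 listed, 37 were tested, and 25 were higher and 4 lower with a median log2 fold change of 0.24, beside 25.0% higher and 26.3% lower of all genes. CTSK, a cathepsin protease, rose to 15.04 ± 0.919 CPM in resistant A375, against 4.759 ± 0.308 CPM in sensitive A375. CTSB, another cathepsin, rose by 0.68 on the log2 scale and SQSTM1, the autophagy receptor p62, by 0.66. LAMP1, a lysosomal membrane protein, fell by 0.26 and the cathepsin CTSD by 0.44. MCOLN1, a lysosomal calcium channel, was at 0.08 ± 0.068 and was not called (edgeR adjusted p = 0.348).

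In SKMel28, 12 of the 37 were higher and 17 lower, with a median of -0.02, beside 34.2% higher and 35.8% lower of all genes. CTSB fell by 0.70 and MCOLN1 by 0.54 on the log2 scale, CTSD fell by 0.27 and LAMP1 by 0.23. ATP6V0D2, a proton pump subunit, fell to 0.311 ± 0.112 CPM in resistant SKMel28, against 52.12 ± 0.245 CPM in sensitive SKMel28. CTSK and SQSTM1 rose in this line too, by 1.94 and 0.19. The A375 change was above the SKMel28 change for 21 of the 37 and below it for 8, beside 4874 and 5017 of all genes. In levels, 33 of the 37 were lower in resistant A375 than in resistant SKMel28, and 34 in sensitive A375 than in sensitive SKMel28, beside 6619 and 6281 of all 15506 genes. TFE3 itself was higher in A375 in both states.

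Activity of TFEB and TFE3 is set mainly by their location in the cell, which RNA counts do not show. Of 23 genes that control it, 8 were higher and 4 lower in resistant A375, with a median log2 fold change of 0.07, and the 52.2% called was close to the 51.3% of all genes. FLCN, which together with RRAGD presents these factors to mTORC1 for phosphorylation, rose by 0.33, and RRAGD, itself a known target of MITF-TFE factors, rose by 0.73. MTOR, the kinase itself, fell to 68.91 ± 1.91 CPM in resistant A375, against 105.3 ± 4.33 CPM in sensitive A375. In SKMel28, 10 were higher and 8 lower, 78.3% called beside 70.0% of all genes, with a median of 0.03, which was -0.003 when libraries were scaled by size alone. FLCN fell by 0.42 and LAMTOR2, a part of the lysosomal anchor of mTORC1, fell by 0.99, while RRAGD rose by 0.55, YWHAQ, a 14-3-3 protein of the kind that holds them in the cytoplasm, by 0.46 and MTOR by 0.13.

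**Figure D5:**
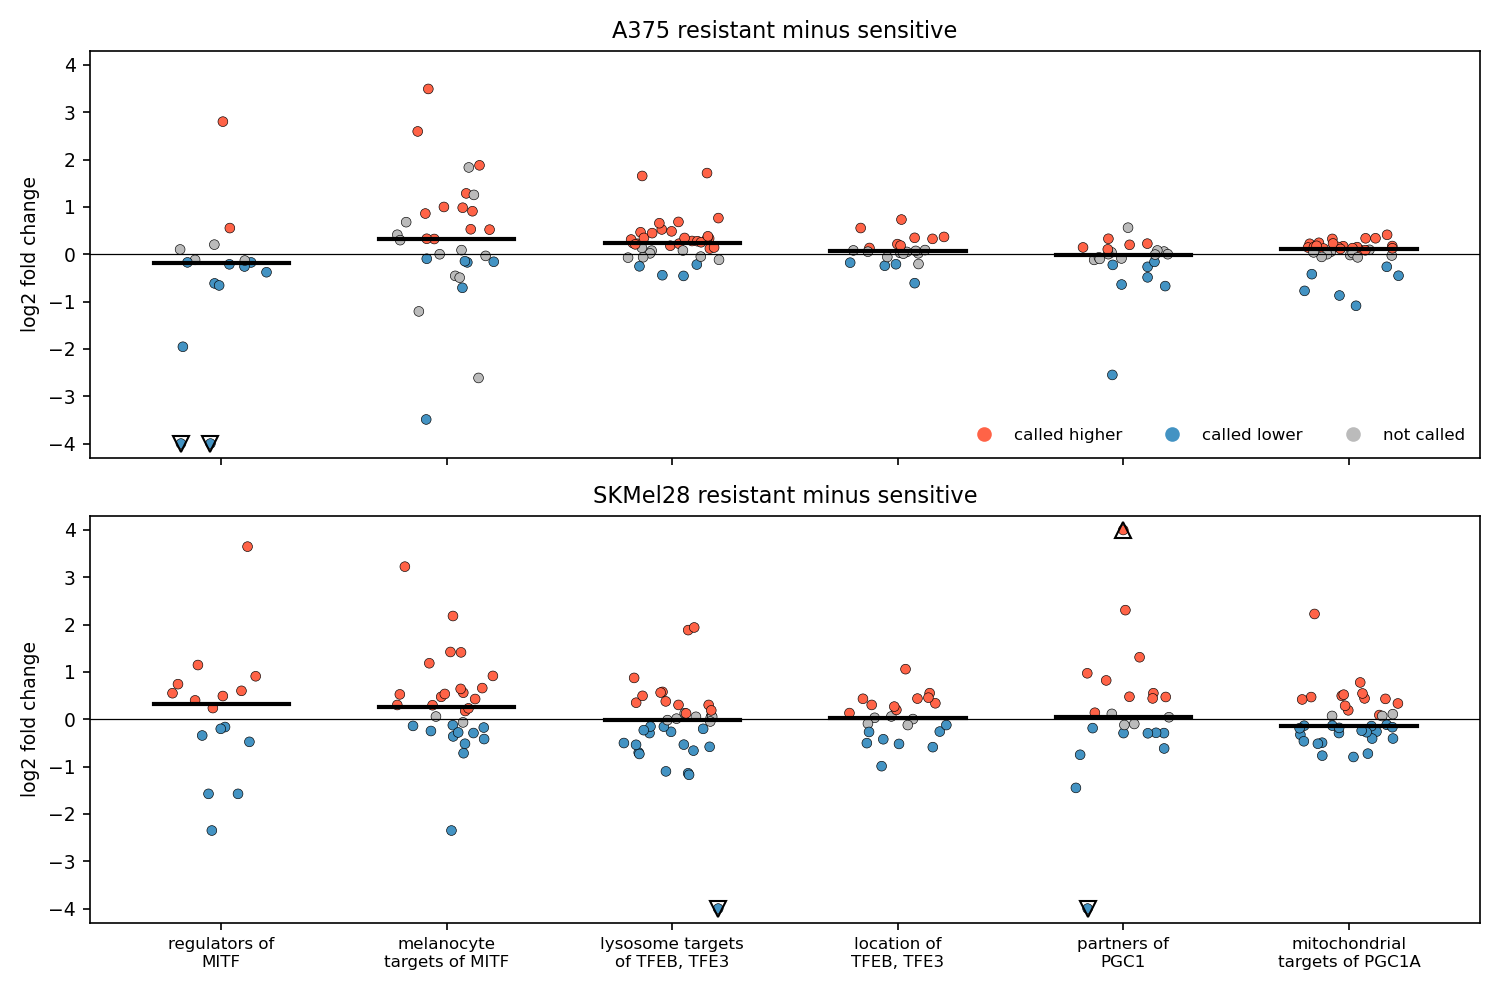
Log2 fold change, resistant over sensitive, of every tested gene of 6 lists in A375 (upper panel) and SKMel28 (lower panel), coloured by call, with a black line at the median of each list and triangles at the edge for values beyond 4 in size. The lysosome targets of TFEB and TFE3 had a median of 0.24 in A375 and -0.02 in SKMel28, and the mitochondrial targets of PGC1A 0.12 in A375 and -0.14 in SKMel28.

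Partners of the PGC1 coactivators moved in both directions. Of 24 listed, 23 were tested, and 5 were higher and 7 lower in resistant A375 with a median of -0.01, and the 52.2% called was close to the 51.3% of all genes. Without sensitive A375 replicate 2, and likewise without replicate 3, 3 were higher. In resistant SKMel28, 10 were higher and 9 lower with a median of 0.04, and 82.6% were called beside 70.0% of all genes. When libraries were scaled by size alone, 6 were higher and 6 lower in A375 and 10 higher and 11 lower in SKMel28. ESRRA, which encodes ERR-alpha, rose by 0.22 on the log2 scale in resistant A375 and fell by 0.62 in resistant SKMel28. In SKMel28 its sign was opposite to that of PPARGC1A. KAT2A, an acetyltransferase that dampens PGC1-alpha, rose by 0.33 in A375 and fell by 0.29 in SKMel28.

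NRIP1, a corepressor that opposes PGC1 action, rose by 0.14 in resistant A375 and fell to 13.72 ± 0.757 CPM in resistant SKMel28, against 37.5 ± 2.67 CPM in sensitive SKMel28. PRKAA2, a catalytic subunit of the energy sensor AMPK, which activates PGC1-alpha, rose by 2.31 on the log2 scale in SKMel28 and fell by 0.27 in A375. PPARG, the nuclear receptor after which the coactivators are named, had no read in resistant SKMel28 and 2.725 ± 0.443 CPM in sensitive SKMel28. It was at least 89-fold lower there, against a floor of 3 reads over the group. TFAM and NRF1, which PGC1-alpha raises to build mitochondria, both fell by 0.29 in SKMel28. In A375 TFAM was at -0.07 ± 0.041 (edgeR adjusted p = 0.185) and NRF1 at -0.09 ± 0.080 (edgeR adjusted p = 0.371), and neither was called.

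Mitochondrial genes known as targets of PGC1-alpha moved in both directions in SKMel28, where PPARGC1A rose. Of 40 listed, 36 were present by symbol, and all of these were tested. In resistant SKMel28, 13 were higher and 20 lower, with a median log2 fold change of -0.14, beside 34.2% higher and 35.8% lower of all genes. Among the 35 that reached 1 CPM in either SKMel28 group, 12 were higher and 20 lower, beside 4996 higher and 5000 lower of 12911 genes. CYCS, the electron carrier cytochrome c, fell to 330.9 ± 14.8 CPM in resistant SKMel28, against 564 ± 19.4 CPM in sensitive SKMel28. The cytochrome oxidase subunits COX4I1 and COX5A fell by 0.80 and 0.50 on the log2 scale, and CPT1A, which carries fatty acids into mitochondria, by 0.73. UQCRC2, a subunit of the cytochrome bc1 complex, rose by 0.78, and ACADM, an enzyme of fatty acid oxidation, by 0.43.

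In resistant A375, 21 of the 36 were higher and 6 lower, with a median of 0.12, beside 25.0% higher and 26.3% lower of all genes. CYCS rose by 0.32, UQCRC2 by 0.18 and COX4I1 by 0.15, while COX5A was at 0.09 ± 0.041 and was not called (edgeR adjusted p = 0.0567). ACADM fell to 24.23 ± 0.300 CPM in resistant A375, against 51.47 ± 2.09 CPM in sensitive A375, CPT1A fell by 0.87 and UCP2, an uncoupling protein, by 0.77. The A375 change was above the SKMel28 change for 17 of the 36 and below it for 11, beside 4874 and 5017 of 15506 genes.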

How the data were processed

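The authors deposited 1 table of raw read counts per library, by symbol, for 26499 genes. Its 5 summary lines were left out. HISAT2, StringTie and GRCh38.p12 are named in the submitters' processing notes, while the deposited files' names point to STAR and unstranded counting, so the aligner is not settled, and reads of antisense genes cannot be told apart. No annotated gene shares exon bases with a member. Unassigned reads were 15.13% to 19.45% per library. Replicates differed by more than sampling noise, with chi-square over degrees of freedom from 2.81 to 7.48.

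Counts were filtered (filterByExpr, 15506 genes left), TMM-scaled and fitted as 4 group means (8 residual degrees of freedom) in edgeR 4.0.16 (R 4.3.3, limma 3.58.1), by the robust two-sided quasi-likelihood test, with Benjamini-Hochberg adjustment over all genes tested. The fitting was tested on simulated data. CPM values are mean ± SD over 3 libraries, fold changes have standard errors, and 95% intervals are 1.96 standard errors either way. Positions and lengths come from GENCODE 29 on GRCh38 and start windows from RefSeq.

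The 6 members and 10 gene lists were chosen with earlier results of these data known. Besides fixed partners, genes were named as the 2 of smallest adjusted p per list and line with at least 10 CPM in the higher group. Protein sequences were not used here. Alternatives were DESeq2 1.42.0 and its size factors, library-size scaling, no filter, 1 line alone, a replicate block and each library left out.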

Additional observations from a re-analysis of the deposited data

Results flagged for a closer look

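Changes with resistance that differed between the lines by the test of the difference itself (edgeR, adjusted over all genes, where 63.8% of genes were called) are given here as the A375 change minus the SKMel28 change on the log2 scale. Of 49 named genes, 46 had more than 3 reads in every group and 41 of these differed, 5 of them members. Part of the named genes were picked for a small adjusted p within a line of these same libraries. The 41 of 46 can therefore not be set against the 63.8% of all genes.

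Among the members the difference was -1.02 for MITF, -0.84 for TFEB, 0.66 for TFE3, -0.69 for PPARGC1A and 0.64 for PPARGC1B. The calls for TFEB and PPARGC1A rest on single libraries, as given above. Among regulators of MITF the difference was -10.84 for SOX10, -1.41 for PAX3, 4.38 for SOX9, 0.92 for LEF1 and 2.18 for MC1R.

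Among melanocyte genes it was 1.07 for GPNMB, -0.46 for CDK2, -1.86 for MET, -0.20 for MLPH, -2.32 for TYRP1, -0.92 for PMEL and 1.46 for BCL2A1, and among other melanoma markers 3.35 for NGFR and -5.42 for S100B. Among lysosome and autophagy genes it was 1.39 for CTSB, -0.18 for CTSD, -0.29 for CTSK, 0.47 for SQSTM1, 0.62 for MCOLN1 and 9.07 for ATP6V0D2. Among genes that control the location of TFEB and TFE3 it was 0.75 for FLCN, 1.01 for LAMTOR2, -0.74 for MTOR and -0.27 for YWHAQ.

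Among partners of the PGC1 coactivators it was -0.44 for PPRC1, 0.84 for ESRRA, 0.62 for KAT2A, 1.59 for NRIP1, -2.57 for PRKAA2 and 0.22 for TFAM. Among mitochondrial genes it was 1.09 for CYCS, 0.95 for COX4I1, 0.59 for COX5A, -0.60 for UQCRC2, -1.52 for ACADM and -3.00 for UCP2. TYRP1, PMEL, BCL2A1 and ATP6V0D2 were below 1 CPM in both A375 groups and UCP2 in both SKMel28 groups.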

How the results depend on the processing

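Of 435 fold changes of members recomputed under the alternatives, 428 kept their side of the threshold, and no called value changed sign. The change of TFEB in A375, which was not called, ran from -0.12 to 0.13. The other 7 came from leaving out 1 library. Over the left-out libraries the log2 fold change in A375 ran from 0.33 to 0.65 for PPARGC1A and from 0.19 to 0.40 for PPARGC1B. The A375 change minus the SKMel28 change ran from -1.11 to -0.64 for TFEB and from -0.79 to -0.47 for PPARGC1A, and the difference between sensitive A375 and sensitive SKMel28 from 0.40 to 0.87 for TFEB. Over all alternatives the edgeR or DESeq2 adjusted p of these 5 results ran, in that order, from 0.0303 to 0.258, from 0.00132 to 0.125, from 0.00295 to 0.0683, from 0.01 to 0.147 and from 0.00209 to 0.114. With a group down to its last pair of libraries, the spread was still shared over all groups. Of 1044 recomputed counts of list genes called higher or lower, 1032 stayed within 1.5 times their value. The other 12 were in the lists of MITF regulators, melanocyte genes and PGC1 partners, and of mitochondrial genes, where 9 higher in sensitive A375 than in sensitive SKMel28 became 14 with library-size scaling. That scaling also took PGC1 partners lower there to 3, from 5. Melanocyte genes with a higher A375 change were 5 without sensitive A375 replicate 1 and 9 with it.

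Residuals of libraries with the same replicate number correlated from -0.0024 to 0.0301 in A375 and from 0.00767 to 0.0471 in SKMel28. Those with different numbers correlated from -0.0221 to 0.0161 in A375 and from -0.0422 to 0.0135 in SKMel28. The labels do not say whether the numbers pair the libraries, and correlations this small do not settle it. With a replicate block, 3942 genes were higher and 4135 lower in A375 and 5327 higher and 5569 lower in SKMel28, and no call of a member changed. Over all groups, depth limits TFEC and TFEB most. In A375, PPARGC1A had fewer reads than TFEB, 146 in the resistant and 109 in the sensitive group, against 264 and 271. Without the low-count filter TFEC was at -0.39 ± 0.773 in A375 and -0.34 ± 1.151 in SKMel28 (edgeR adjusted p = 0.757 and 0.869). It was then higher in A375 than in SKMel28 by 2.07 ± 0.922 in sensitive cells (edgeR adjusted p = 0.0381) and 2.02 ± 0.97 in resistant cells (edgeR adjusted p = 0.0545).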
